A study of Mus musculus with 8 samples.

Results

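Dnmt3a and Dnmt3b, which encode the de novo DNA methyltransferases, were followed through the first days of differentiation of mouse embryonic stem (ES) cells, in total RNA and in RNA bound to ribosomes. They were taken by gene symbol and are 2 of the 3160 genes in the deposited table. Both enzymes place methyl groups on cytosines of CpG dinucleotides that carried none before, whereas Dnmt1 copies existing methylation at each round of replication. DNA methylation is low in the naive epiblast of the blastocyst and is rebuilt around implantation, when both genes are active. Dnmt3b is a common marker of the epiblast at that stage.

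The cells were the mouse ES line E14Tg2A, an Hprt-deficient line of strain 129/Ola that all groups share, so the results are those of a single line. The 4 groups had 2 libraries each. ES cells (day 0, serum and LIF) were compared with epiblast-like aggregates (ELA, day 2 of floating culture in a chemically defined minimal medium without LIF). At each stage the input, called total RNA here, was the RNA of the lysate after nuclei and debris had been spun out, and the Rpl10a-IP was the RNA precipitated with an antibody against the endogenous ribosomal protein Rpl10a after cycloheximide had arrested translation. An RNA precipitated in this way is bound to ribosomes, which is not a measurement of protein made. The labels do not say whether the libraries numbered 1 and 2 came from separate cultures. The p-values therefore measure only the spread between these libraries, which limma pooled largely or wholly over genes. All are bulk samples, in which fewer cells of a type and less RNA per cell cannot be told apart.

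Both genes lie in CpG-rich sequence, and Dnmt3a has several start sites, which the gene-level counts add together. Dnmt3a spans chr12:3801559-3914443 and Dnmt3b spans chr2:153649411-153687730, both on the plus strand of GRCm38.p6, the reference release of the mm10 build used by the authors. RefSeq promoter windows of 250 bases before the start were read for 3 Dnmt3a start sites (positions 3806980, 3807160 and 3891744) and 1 Dnmt3b start site (position 153649449). They held 38, 40 and 15 CG dinucleotides for Dnmt3a and 21 for Dnmt3b, against a median of 6 over 32851 windows of the same kind. The motif GGGCGG, searched on both strands (as GGGCGG or CCGCCC, overlaps counted), was present 5, 4 and 1 times for Dnmt3a and 3 times for Dnmt3b. It was present in 32.7% of all windows. The stretches below are from an outer start of Dnmt3a, the inner one and Dnmt3b, with the motif in capitals. Both Dnmt3a stretches end at the base before the start, while that of Dnmt3b ends earlier, where the annotated gene begins.
Dnmt3a outer start, chr12:3806860-3806979, plus strand: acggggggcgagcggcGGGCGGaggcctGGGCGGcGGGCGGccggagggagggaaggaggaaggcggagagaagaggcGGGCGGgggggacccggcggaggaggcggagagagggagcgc
Dnmt3a inner start, chr12:3891624-3891743, plus strand: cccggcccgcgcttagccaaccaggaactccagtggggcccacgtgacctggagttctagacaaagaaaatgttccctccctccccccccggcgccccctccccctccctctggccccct
Dnmt3b, upstream of the first annotated base of the gene, chr2:153649329-153649410, plus strand: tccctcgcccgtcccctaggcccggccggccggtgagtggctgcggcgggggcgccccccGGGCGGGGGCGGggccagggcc
The inner start of Dnmt3a gives a shorter mRNA for a protein without the first part of the long form. Reads were collapsed per gene by the authors, so neither the forms of Dnmt3a nor the splice forms of Dnmt3b can be read apart here. The strand setting of the counting is not given in the sources used here, and the antisense gene Dnmt3aos overlaps Dnmt3a, so the Dnmt3a counts may include its reads.

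The depth behind the values was very uneven. Libraries held between 159587 and 23483388 reads over the 3160 genes, a 147-fold range, and both ELA inputs (159587 and 410192 reads) were the shallowest. The study's methods left out ELA input replicate 1 for low complexity. Replicate numbers here are those of the sample titles, while another label gives the number 1 to both inputs of each stage. The values of both genes that use ELA input replicate 1 are therefore also given without it. For the gene lists, only the direction in which the number of calls moved is given. Over genes, which are not independent replicates, a chi-square of read counts divided by its degrees of freedom came to 0.957 between the ELA inputs and 6.04 to 27.2 in the other pairs. The deposited table had been filtered on agreement of ratios that use these libraries. In the 214 genes with at least 500 reads over both ELA inputs the chi-square per gene was 4.64 (p = 1.19e-100, genes taken as independent). Neither value can show whether the ELA inputs were separate samples, since spread can also arise in library preparation. They were counted as 2 samples because their titles number them so. The stage labels were checked on markers. All 6 naive pluripotency markers in the table (of 14 listed) fell in ELA total RNA, with a median log2 change of -2.89, and none of the 9 primed epiblast markers was analysed here. Of 5 general pluripotency genes 3 were in the table, where Pou5f1 fell by 1.18, Sall4 rose by 0.25 and Lin28a was not called (0.11). Of 13 endoderm markers, only Lama1 and Lamb1 were in the table. Their summed normalised count was 1882 to 2054 in ES input and 1223 to 1261 in ELA input, but 1901 to 2009 in ES Rpl10a-IP and 2343 to 2392 in ELA Rpl10a-IP. Of 6 early neural markers, only Nes was in the table, with 372 to 375 in ES input and 2035 to 2229 in ELA input (269 to 338 and 1184 to 1380 in the Rpl10a-IPs). Of the 7 trophectoderm markers none was analysed here. The part of other cell types in the results was not tested.

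Dnmt3b was the more abundant of the pair at both stages. Normalised counts are reads divided by TMM scale factors with a geometric mean of 1 over the 8 libraries. In ES input, Dnmt3b had 3188 and 3063 normalised counts, from 3745 and 2660 reads. In ES Rpl10a-IP it had 2862 and 3200, from 11349 and 13291 reads. In ELA input it had 20200 and 18169, from 743 and 1714 reads. In ELA Rpl10a-IP it had 25276 and 26387, from 127330 and 89859 reads. Every ELA library was far above every ES library, and in ELA both Rpl10a-IP libraries were above both inputs. In ES the ranges of input and Rpl10a-IP overlapped.

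Dnmt3a moved over a narrower range. In ES input, Dnmt3a had 1363 and 1210 normalised counts, from 1601 and 1051 reads. In ES Rpl10a-IP it had 1225 and 1116, from 4856 and 4636 reads. In ELA input it had 1930 and 2268, from only 71 and 214 reads (95% Poisson intervals 55.5 to 89.6 and 186 to 245, which cover counting error only). In ELA Rpl10a-IP it had 2179 and 2210, from 10976 and 7526 reads. Every ELA library was above every ES library, and at neither stage were input and Rpl10a-IP apart.

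**Figure D1:**
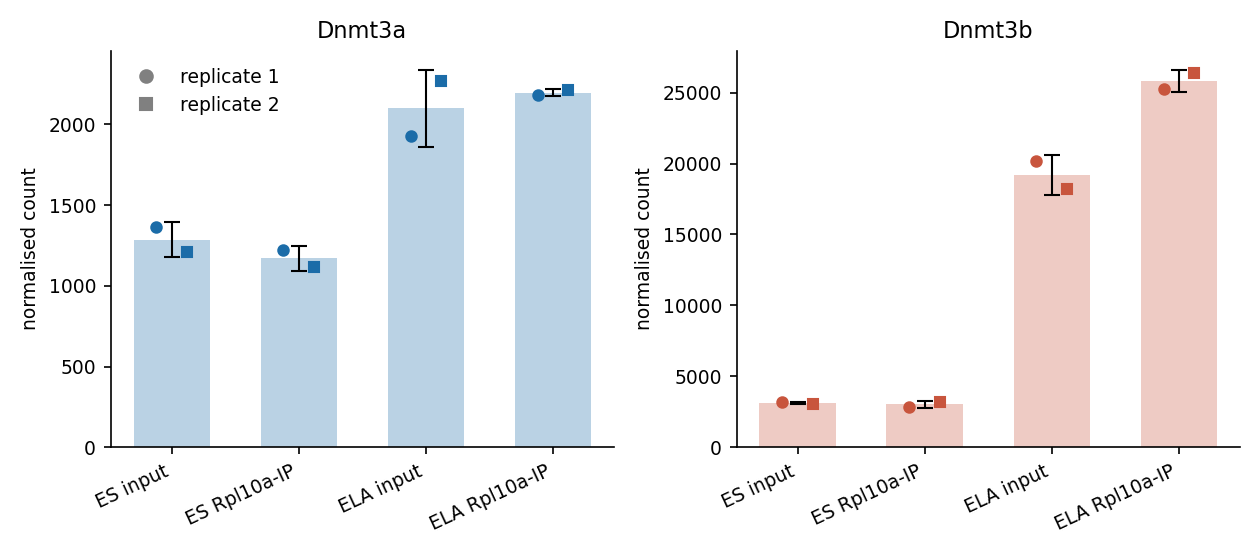
Normalised counts of Dnmt3a (left) and Dnmt3b (right) in each library, with bars for the group mean and error bars for the SD of the 2 libraries. The vertical axes differ: Dnmt3a reaches 2268 and Dnmt3b reaches 26387, and for both genes the ELA libraries lie above the ES libraries.

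Group means put these levels in order. Dnmt3b averaged 3125 ± 87.8 in ES input, 3031 ± 239 in ES Rpl10a-IP, 19185 ± 1437 in ELA input and 25831 ± 786 in ELA Rpl10a-IP (normalised counts, SD, n = 2). Dnmt3a averaged 1287 ± 108, 1170 ± 76.6, 2099 ± 239 and 2194 ± 22.1 in the same order. For Dnmt3a the neighbours ES Rpl10a-IP and ES input did not differ beyond their spread, and neither did ELA input and ELA Rpl10a-IP. For Dnmt3b only the ES pair was not apart. Ranked per kilobase of the longest transcript among 3121 genes with a known length, Dnmt3b lay above 83.9 to 85.7% of genes in the ES libraries and above 98.5 to 99.6% in the ELA libraries. In ELA Rpl10a-IP its ranks from the top were 14 and 13. Dnmt3a lay above 32.1 to 38.0% of genes in ES and above 50.9 to 56.8% in ELA on the same scale. That scale takes 9685 bases for Dnmt3a, while its median transcript has 5424, so its rank depends on the transcript taken.

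The first comparison asks how the mRNA of each gene changed in total RNA as ES cells became ELA. Both rose. Dnmt3b rose by a log2 change of 2.62 (SE 0.10, 95% interval 2.41 to 2.82), which is 6.13-fold, with an adjusted p of 4.55e-22 (limma, Benjamini-Hochberg over 3160 genes). Its rank from the top was 32. Dnmt3a rose by 0.70 (SE 0.11, 95% interval 0.48 to 0.93), which is 1.63-fold, with an adjusted p of 1.21e-06 (limma), at rank 534. The calls were common: limma called 70.2% of all genes in this comparison (34.5% higher, 35.8% lower and 10.5% over 2-fold higher), so a rise of the size of Dnmt3a was frequent in this table. Without ELA input replicate 1 the changes were 2.54 for Dnmt3b and 0.82 for Dnmt3a, and both were still called. Counting error alone gave an SE of 0.10 for Dnmt3a and 0.04 for Dnmt3b on this scale.

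The next comparison asks the same of ribosome-bound RNA, where the libraries are deep. Dnmt3b rose by 3.09 (SE 0.09, 95% interval 2.92 to 3.26), which is 8.53-fold and rank 24 from the top. Dnmt3a rose by 0.91 (SE 0.09, 95% interval 0.73 to 1.09), which is 1.88-fold, with an adjusted p of 2.11e-22 (limma) and rank 545. In this fit the SE and p-value came wholly from the spread over all genes, and a gene's own replicates had no weight in them. Here limma called 83.4% of all genes (41.1% higher, 42.3% lower and 15.3% over 2-fold higher). These changes moved with transcript length: over 3121 genes, which are not independent, Pearson's r with the log10 of the longest transcript's length was 0.58, against 0.32 for total RNA. Dnmt3a is long (longest transcript 9685 bases, above 96.3% of genes) and Dnmt3b is nearer the middle (4320 bases, above 61.5%). After correction for length and GC content with the replicate number as a block, Dnmt3b was at 2.73 and still called, but Dnmt3a was at -0.01 (adjusted p = 0.902, limma). With the median transcript length in place of the longest (5424 bases for Dnmt3a), Dnmt3a was at 0.26 (adjusted p = 0.00142, limma). The rise of Dnmt3a on ribosomes depended on this correction and on the transcript taken to stand for the gene. In total RNA the rise of Dnmt3a was smaller after the same corrections, at 0.42 and 0.49, and still called.

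The difference between the 2 genes was itself tested. Dnmt3b rose by more than Dnmt3a, by 1.91 (SE 0.15, 95% interval 1.61 to 2.22) on the log2 scale in total RNA and by 2.18 (SE 0.13, 1.94 to 2.43) in ribosome-bound RNA. These intervals take the errors of the 2 genes as independent, although they share libraries. Without ELA input replicate 1 the first difference was 1.72. The scale of a library cancels in the ratio of the reads of 1 gene to the other. Dnmt3b gave 2.34 and 2.53 reads for each Dnmt3a read in ES input, and 2.34 and 2.87 in ES Rpl10a-IP. It gave 10.5 and 8.01 in ELA input, and 11.6 and 11.9 in ELA Rpl10a-IP. The share of Dnmt3b in the reads of the pair was thus 70.1% and 71.7% in ES input and 91.3% and 88.9% in ELA input, and the shallowest of these libraries had an exact 95% Clopper-Pearson interval of 89.1 to 93.1%. The ratio of ratios was 3.76 between the inputs and 4.55 between the Rpl10a-IPs, with the groups apart in both. In an exact two-sided permutation test each gave p = 0.333, the smallest that 2 against 2 libraries allow. Per kilobase of the longest transcript, Dnmt3b was 5.46 times Dnmt3a in ES input and 20.7 times in ELA input on average. Per kilobase of all exons joined, these were 7.94 and 30.1. By both lengths Dnmt3a is far longer than Dnmt3b (9685 against 4320 bases, and 16642 against 5106). The median transcripts are nearer in length (5424 and 4130 bases), so per kilobase of them both ratios would be lower.

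**Figure D2:**
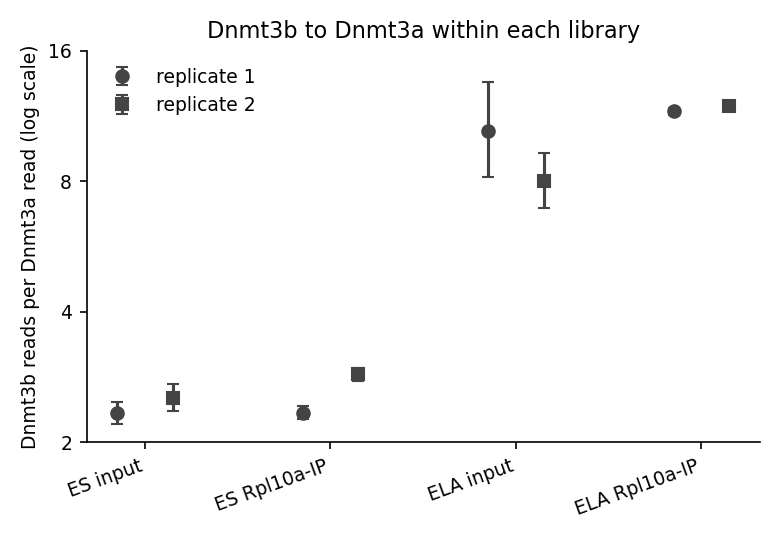
Reads of Dnmt3b per read of Dnmt3a in each library, on a log axis, with bars for the 95% Clopper-Pearson interval of the share turned into a ratio. The 4 ES libraries lie between 2.34 and 2.87 and the 4 ELA libraries between 8.01 and 11.9.

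Ribosome enrichment, the Rpl10a-IP over the input of the same stage, asks how much of an mRNA was on ribosomes relative to the other mRNAs in the table. In ES neither gene was called. For Dnmt3b the ratios of same-numbered libraries were 0.898 and 1.04, and the log2 enrichment was -0.05 (SE 0.09, 95% interval -0.22 to 0.12, adjusted p = 0.711, limma). For Dnmt3a they were 0.899 and 0.922, and the log2 enrichment was -0.14 (SE 0.09, 95% interval -0.32 to 0.04, adjusted p = 0.241, limma), and it was -0.05 without ES input replicate 1 and -0.22 without ES input replicate 2, not called in either. In this comparison limma called 39.5% of genes.

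In ELA, Dnmt3b was enriched and Dnmt3a was not called. The Dnmt3b ratios were 1.25 and 1.45, and the log2 enrichment was 0.43 (SE 0.10, 95% interval 0.23 to 0.63, adjusted p = 0.000244, limma). The Dnmt3a ratios were 1.13 and 0.974, and the log2 enrichment was 0.07 (SE 0.11, 95% interval -0.16 to 0.30, adjusted p = 0.590, limma). The difference between the 2 genes in ELA was 0.36 (95% interval 0.06 to 0.67), but 1 library decided its size: it was 0.56 without ELA input replicate 1 and 0.17 (95% interval -0.13 to 0.47) without ELA input replicate 2. The interval also reached 0 without either ELA Rpl10a-IP library (-0.01 to 0.77 and -0.05 to 0.73). After the length and GC correction it was 0.83 with the replicate block (0.56 to 1.09), 0.83 without it (0.54 to 1.11), and 0.52 (0.25 to 0.78) with the block and the median transcript. The size of the difference in ELA enrichment, and whether its interval reached 0, thus depended on the setting. Limma called 74% of all genes (36.8% higher), and Dnmt3b was above 71.2% of genes. Without ELA input replicate 1 the values were 0.51 for Dnmt3b, still called, and -0.05 for Dnmt3a. With the length and GC correction and the replicate block Dnmt3b was at 0.25 (adjusted p = 0.00804, limma) and Dnmt3a at -0.58 (adjusted p = 2.06e-08, limma); with the median transcript Dnmt3a was at -0.31 (adjusted p = 0.00345, limma).

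The change in ribosome enrichment between the stages was tested as an interaction. For Dnmt3b it was 0.48 (SE 0.14, 95% interval 0.19 to 0.76, adjusted p = 0.00446, limma), or 1.39-fold. For Dnmt3a it was 0.20 (SE 0.16, 95% interval -0.12 to 0.53, adjusted p = 0.281, limma). The difference between the 2 genes was 0.27 with a 95% interval of -0.16 to 0.70. It was 0.47 (0.07 to 0.86) without ELA input replicate 1, 0.08 (-0.31 to 0.47) without ELA input replicate 2 and 0.13 (-0.39 to 0.64) without ES Rpl10a-IP replicate 1, while it was 0.42 (-0.09 to 0.94) without ES Rpl10a-IP replicate 2. After the length and GC correction with the replicate block it was 0.61 (0.23 to 0.98), and 0.37 (-0.004 to 0.74) with the median transcript. Whether the enrichment of the 2 genes changed by different amounts thus depended on the setting. Limma called 56.2% of all genes (28.4% higher and 27.7% lower), and Dnmt3b was above 75.5% of genes. The call for Dnmt3b remained without each library in turn (0.40 to 0.56), among them ELA input replicate 1 (0.55). It was lost after the length and GC correction with the replicate block, at 0.18 (adjusted p = 0.234, limma), and at 0.14 (adjusted p = 0.349, limma) with the median transcript. In the same fits Dnmt3a was at -0.43 (adjusted p = 0.00582, limma) and -0.23 (adjusted p = 0.160, limma). Without ELA input replicate 1 Dnmt3a was at 0.087 and not called (adjusted p = 0.623, limma), and without ELA input replicate 2 it was at 0.32 and called (adjusted p = 0.0456, limma). Over genes, Pearson's r of this change with log10 transcript length was 0.48.

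**Figure D3:**
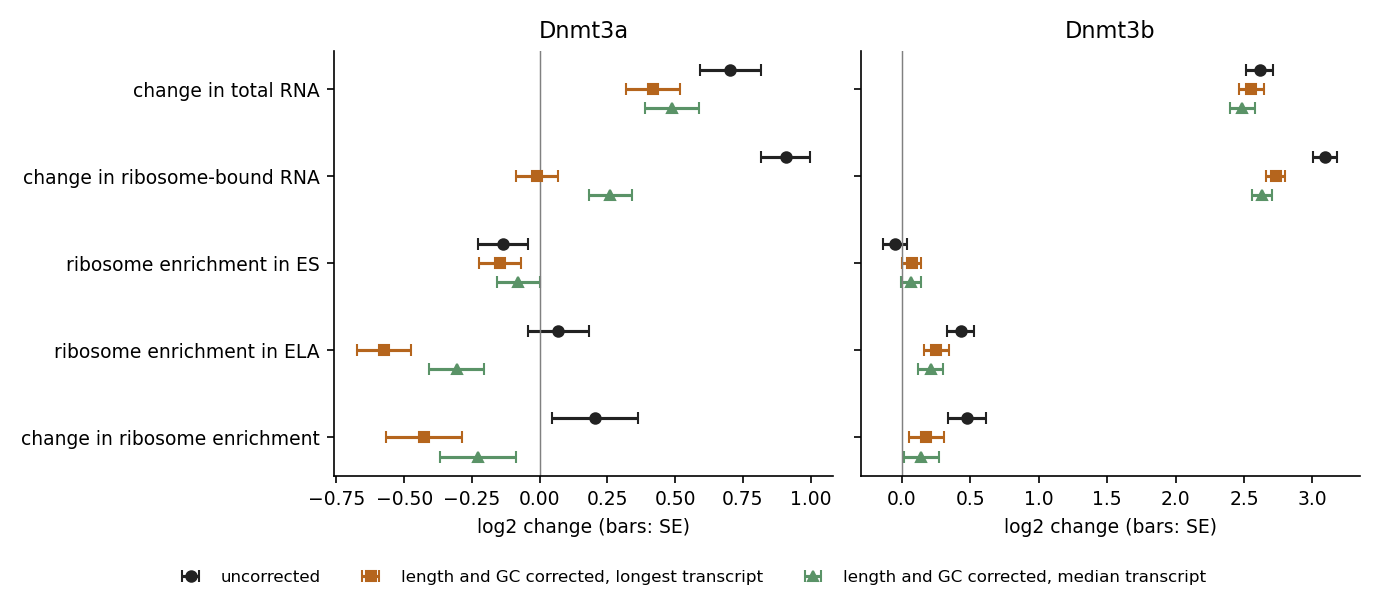
Log2 changes of Dnmt3a (left) and Dnmt3b (right) in the 5 comparisons, with bars for the SE, uncorrected and after the length and GC correction with the replicate block for 2 choices of transcript length. The horizontal axes differ; the rise of Dnmt3b in both RNA fractions (2.62 and 3.09 uncorrected) stays far from 0, while the ribosome-bound change of Dnmt3a goes from 0.91 to -0.01 or 0.26.

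Other genes of the methylation machinery were taken from lists, of which only the members in the table were measured. Among maintenance factors and cofactors, 6 of 12 listed genes were in the table. In total RNA 2 rose, 2 fell and 2 were not called, near the shares over all genes (34.5% higher and 35.8% lower), with a median log2 change of -0.15 against -0.02 over all genes. Cdca7l, a relative of the chromatin remodelling cofactor Cdca7, rose by 1.37 (SE 0.12), and Smchd1, a structural chromatin protein of the silent X chromosome, rose by 0.72 (SE 0.11; 0.30 after the length and GC correction with the replicate block). Uhrf1, which brings Dnmt1 to half-methylated DNA, fell by 0.70 (SE 0.11). Usp7, a deubiquitinase that stabilises Uhrf1, fell by 0.25 (SE 0.10), a call that was lost with total reads as the scale (-0.18), with no trend in the prior variance, and without ES input replicate 2 (-0.18) or ELA input replicate 2 (-0.16), and was at -0.40 after the length and GC correction with the replicate block. Hells, a remodelling ATPase needed for methylation of repeats, and the replication clamp Pcna were not called, at -0.11 and -0.19.

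Of 17 demethylation genes, 3 were in the table. Tet1, the main dioxygenase that oxidises 5-methylcytosine in ES cells, fell by 0.94 (SE 0.10). Its normalised count averaged 6748 in ES input and 3514 in ELA input, opposite in direction to both Dnmt3 genes. The glycosylase Mbd4 (0.16) and the repair factor Parp1 (-0.02) were not called. Of 8 genes listed as methyl-CpG readers or their relatives, 1 was in the table, a relative not taken here to bind methylated CpG. Mbd3, a subunit of the NuRD complex, fell by 0.36 (SE 0.14; -0.61 without ELA input replicate 1), a call that was lost with total reads as the scale (-0.30) and without ES input replicate 1 (-0.34), ES input replicate 2 (-0.38) or ELA input replicate 2 (-0.11).

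The widest list held enzymes for the histone marks that DNMT3 proteins read or avoid, and partners in silencing. In total RNA 5 of its 12 measured members rose and 5 fell (29 listed), against 34.5% and 35.8% of all genes. Whsc1, also known as Nsd2, which methylates H3K36, rose by 1.28 (SE 0.11), and Nsd1, another H3K36 methyltransferase, fell by 0.44 (SE 0.10). After the length and GC correction with the replicate block these were 0.80 and -0.76, and without ELA input replicate 2 Nsd1 was at -0.29, all still called. The H3K9 methyltransferase Setdb1 fell by 0.89 (SE 0.11) and its corepressor Trim28 by 0.93 (SE 0.11). The heterochromatin protein Cbx1 fell by 0.30 (SE 0.11), but it was at 0.09 and not called after the length and GC correction with the replicate block, and it was also not called with total reads as the scale (-0.23) or without ES input replicate 1 (-0.22) or ELA input replicate 1 (-0.24). Mga, a subunit of a repressive complex with E2f6, was not called at -0.21. In ribosome enrichment 8 of the 12 rose and 2 fell between the stages, against 28.4% of all genes higher and 27.7% lower. This count of 10 calls was 5 with the length and GC correction and the replicate block, a fit whose share over all genes is not given here. It was also lower without ES input replicate 1 or ELA input replicate 1, each of which leaves 1 library in a group. The count thus depended on the setting.

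S-adenosylmethionine is the methyl donor of all DNA methyltransferases, and 10 of 20 genes of its cycle and of the folate and glycine reactions that feed it were in the table. In total RNA 1 rose, 6 fell and 3 were not called (34.5% and 35.8% of all genes rose and fell), with a median log2 change of -0.54 against -0.02 over all genes. Tdh, the threonine dehydrogenase that mouse ES cells use to make glycine, fell by 2.15 (SE 0.12), and the folate enzyme Mthfd2 by 1.34 (SE 0.16). Mat2a, which makes S-adenosylmethionine, fell by 0.79 (SE 0.10), and Mtr, which remakes methionine, by 0.77 (SE 0.12). Mthfd1l fell by 0.43 (SE 0.11). The single rise was that of Gldc, of the glycine cleavage system, at 0.23 (SE 0.10), a call lost in 7 of 8 fits that left out a library (0.19 to 0.27 over all 8), with the size factors as deposited (0.13), with at least 10 reads in every library, and with no trend in the prior variance. In ribosome-bound RNA 4 of the 10 rose and 4 fell, near the 41.1% and 42.3% over all genes. In ribosome enrichment 4 rose and 1 fell between the stages, against 28.4% and 27.7%. Without ELA input replicate 1, which leaves 1 library in its group, the number of calls in total RNA rose for the maintenance list. It fell for the histone list and was unchanged for the S-adenosylmethionine, demethylation and reader lists. In ribosome enrichment it rose for the S-adenosylmethionine list. No share over all genes is set beside these moves, so nothing about the lists is read from them.

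**Figure D4:**
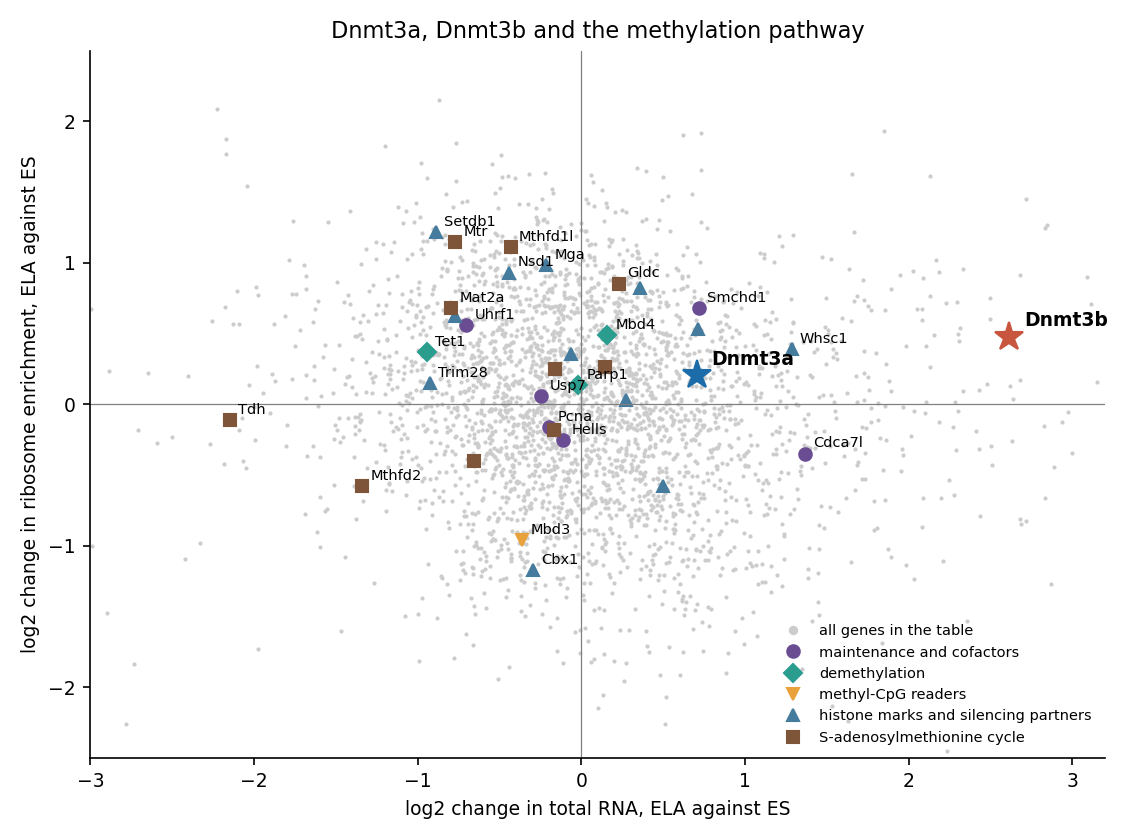
Log2 change in total RNA (horizontal) against log2 change in ribosome enrichment (vertical) from ES to ELA, with all genes in grey, the pathway lists as coloured symbols and Dnmt3a and Dnmt3b as stars. Dnmt3b lies at the far right (2.62) with a moderate change in enrichment (0.48), and most list members lie closer to the vertical axis; 19 grey points fall outside the plotted range.

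Genes whose pattern was most like that of each gene were found among 1928 genes with at least 20 reads in each ELA input, by the root mean square difference of log2(normalised count + 1) over the 8 libraries after centring each gene on its mean. For Dnmt3b these were Nav2, Acsl4, Pgap1, Arrb1 and Setbp1, at 0.15 to 0.22 (median over all genes 1.43). For Dnmt3a they were Agap1, Cux1, Ttc14, Srgap2 and Rad54l2, at 0.04 to 0.11 (median 0.54). Dnmt3a and Dnmt3b were 1.04 apart on this measure, although their Pearson's r over the 8 libraries was 0.97: both stepped up between the stages, but by different amounts. The points share 4 groups and uneven depth, so these values are a description.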

How the data were processed

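The deposited table holds a normalised signal per gene and library. Per the labels and the study's methods, the authors aligned reads to the mm10 transcriptome with TopHat2, counted them per gene with htseq-count and divided the counts by DESeq2 size factors; from the values, the factors were set separately for inputs and Rpl10a-IPs. Versions are not given in the sources used here. The methods filter on mean count and on the spread between replicates. In the 3160 genes of the table the larger mean input was at least 50 and the SD over mean of the replicate ratios below 0.2, so genes whose replicates disagree are missing, the adjusted p-values err on the small side and the numbers of calls on the large side. The other 26 columns (means, SDs, the authors' ratios and fold changes) were not used.

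Raw read counts were not used here. The value of 1 read in each library was inferred from the smallest gap between its values, which made 100% of values whole within 1e-06. A search that starts from the lowest value, which is 1 read in ELA input replicate 1 and 2 to 82 reads in the other libraries, made 100% of low values whole within 0.1 in that library and 18.4 to 20.5% in the others. These reads were divided by TMM factors. Comparisons were fitted with limma 3.58.1 in R 4.3.3 (lmFit, eBayes with trend) on log2(normalised count + 1), with Benjamini-Hochberg adjustment over all genes at 0.05. ELA input replicate 1 was left out (7 libraries) for ES enrichment and the ribosome-bound change, and kept (8 libraries) elsewhere. A log2 change on this scale understates that of low genes. The fits were also run on simulated reads with 1 fixed spread for all genes and no filter on replicate agreement. That run gives no error rate for this table. Lengths and GC content came from gencode vM1 transcripts (3121 of 3160 genes, 142 through an older symbol), with a loess of span 0.5 per library. Alternatives were other scalings, a pseudocount of 0.5, at least 10 reads in every library, no trend, the replicate block, and leaving out each library. Poisson and Clopper-Pearson intervals cover counting error only, and limma's cover the spread between libraries as pooled over genes. Its prior degrees of freedom were 30.7 in the main fits of 8 libraries and infinite in those of 7 libraries. With an infinite value, the SE comes from the trend over all genes and not from a gene's own replicates.

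The members and lists were chosen with earlier results of these data known. Dnmt3a and Dnmt3b are always named; from each list up to 6 measured genes with the largest change in total RNA or in enrichment are named; 5 genes were named for likeness to each. Pairing of replicate numbers was not assumed. Sequences are from RefSeq, GRCm38.p6. One gene of the lists is not reported here.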

Additional observations from a re-analysis of the deposited data

Results flagged for a closer look

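A difference between the stages in ribosome enrichment, tested as an interaction in limma, was called for Dnmt3b at 0.48 on the log2 scale, and it was lost after the length and GC correction. Over all genes limma called 28.4% higher and 27.7% lower. List genes were named partly for the size of their change in enrichment, so how many of them were called is not a result about the lists. Among the named genes of the pathway lists, the enrichment was higher in ELA than in ES for Setdb1 (1.22), Mtr (1.15), Mthfd1l (1.11), Mga (0.98), Nsd1 (0.93), Gldc (0.85), Smchd1 (0.68), Mat2a (0.68), Uhrf1 (0.56), Mbd4 (0.49), Whsc1 (0.39) and Tet1 (0.37). It was lower for Cbx1 (-1.17), Mbd3 (-0.96) and Mthfd2 (-0.58), and the call for Mthfd2 was lost without ES input replicate 2 (-0.45), ELA input replicate 2 (-0.20) or ELA Rpl10a-IP replicate 1 (-0.41), and it was -0.96 without ELA input replicate 1. The length and GC correction with the replicate block ended the calls for Nsd1 (0.17) and Whsc1 (0.14), turned Tet1 into a called fall (-0.39, adjusted p = 0.00684, limma), and left Mga at 0.29, Mbd3 at -0.44 and Uhrf1 at 0.36, all 3 still called. Size factors as deposited, and no trend in the prior variance, also ended the calls for Tet1 and Whsc1. Total reads as the scale ended the calls for Mbd4 (0.40), Tet1 (0.28) and Whsc1 (0.30). The call for Mbd4 was lost without any 1 library other than ES input replicate 2 and the ELA inputs, that for Tet1 without any other than ES Rpl10a-IP replicate 1, ELA input replicate 1 and ELA Rpl10a-IP replicate 1, and that for Whsc1 without any other than ELA input replicate 2 and ELA Rpl10a-IP replicate 1.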

How the results depend on the processing

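The rise of both genes in total RNA and of Dnmt3b in ribosome-bound RNA was called in all 18 alternatives run for each (Dnmt3a total RNA 0.42 to 0.82; Dnmt3b 2.49 to 2.69 and 2.63 to 3.17), and the ELA enrichment of Dnmt3b in all 17 (0.21 to 0.51). Some of these could change only the SE, such as fitting no trend or leaving out a library that the comparison does not use. The length and GC correction with the replicate block, and the same without the block (chosen after seeing the data), gave the same log2 values: Dnmt3a ribosome-bound -0.011, Dnmt3a ELA enrichment -0.58, Dnmt3a change in enrichment -0.43, Dnmt3b ES enrichment 0.073, Dnmt3b change in enrichment 0.18 (adjusted p = 0.234 and 0.237, limma). With the block, Cbx1 total RNA was 0.086 and the Tet1 change in enrichment -0.39. With the median transcript (also chosen after seeing the data) they were -0.31 for Dnmt3a ELA enrichment, -0.23 and 0.14 for the change in enrichment of Dnmt3a and Dnmt3b, and 0.070 for Dnmt3b ES enrichment. With total reads as the scale Dnmt3a ELA enrichment was -0.043.

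Leaving out each library in turn gave -0.13 to 0.034 for Dnmt3b ES enrichment, -0.048 to 0.18 for Dnmt3a ELA enrichment, and 0.087 to 0.32 for the Dnmt3a change in enrichment. The number of genes called for ES enrichment was 1247, was 762 with all 8 libraries, and ranged from 722 to 1348 over the left-out libraries. The ratio of Dnmt3b to Dnmt3a per kilobase was 7.94, 8.48, 30.1 and 38.4 with all exons joined (ES input, ES Rpl10a-IP, ELA input, ELA Rpl10a-IP) against 5.46, 5.83, 20.7 and 26.4 with the longest transcript. It would be lower with the median transcripts (5424 bases for Dnmt3a and 4130 for Dnmt3b). The replicate block alone changed no call for either gene; the Dnmt3b change in enrichment was 0.48 with it (adjusted p = 0.00168, limma), and calls over all genes went from 1775 to 1894. Deviations of same-numbered libraries correlated at -0.02 to 0.50 over genes. The methods take each input from the lysate of an Rpl10a-IP, but the labels do not say that equal numbers mark the same lysate. For the 32 called values of named list genes (total RNA and change in enrichment), 510 alternative fits were run, of which 49 lost the call and 2 changed sign.

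The planned count tests with edgeR and DESeq2 were not run, because the reads were inferred from normalised values and only 1 of the 2 ways to find them gave whole numbers in every library. The deposited size factors, set within each fraction, were not applied to the 2 enrichments within a stage. The cause of these differences was not tested. Depth limits what the ELA inputs can show: the 71 and 214 Dnmt3a reads give a counting SE of 0.10 on the log2 scale for the change in total RNA.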
